A study of Homo sapiens with 8 samples.

Results

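The enzymes of glycolysis and the genes that cells raise when oxygen is short were compared between wild-type (WT) and EXT1-/- human embryonic stem cells. The 37 genes were chosen by symbol and all 37 were present in a table of 15811 genes. They comprise 17 glycolytic enzymes, 4 switches of glucose flux, 4 oxygen sensors and subunits of hypoxia-inducible factor (HIF), and 12 other hypoxia-responsive genes. In EXT1-/- cells 24 of the 37 fell, none passed the test as higher, and 13 were not called. Of all genes in the table, 16.8% were called lower and 15.2% higher. Among the 24 members the falls ran from 13.6-fold for AK4, a mitochondrial adenylate kinase, to 1.27-fold for ENO1, the main enolase.

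H9 is an established human embryonic stem cell line. Total RNA was sequenced in 4 libraries of WT H9 cells and 4 of an EXT1-/- line made from them with CRISPR/Cas9. EXT1 encodes a subunit of the polymerase that extends heparan sulfate, a sugar chain of the cell surface that binds growth factors. Both groups were kept in E8 medium on vitronectin, seeded at equal density, and moved to RPMI-1640 with 6 µM CHIR-99021, a GSK3 inhibitor that starts mesendoderm differentiation, for 28 h before collection. The design text speaks of 1 EXT1-/- line and the number of clones is not given, so features of the line and of the loss of EXT1 cannot be told apart. Nothing in them tells whether replicates were grown apart, and a p-value here therefore reflects variation among libraries that could be technical.

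Glycolysis converts glucose to pyruvate in the cytosol, and lactate dehydrogenase turns pyruvate into lactate while regenerating NAD+. Pluripotent stem cells are known for a high glycolytic flux. HIF consists of an oxygen-labile alpha subunit (HIF1A or EPAS1) and ARNT. With oxygen present, the EGLN prolyl hydroxylases mark the alpha subunit for destruction. With little oxygen it persists and binds hypoxia response elements, whose core is ACGTG or GCGTG, near genes of glycolysis, glucose uptake, blood vessel growth and mitochondrial turnover. HIF is controlled largely at the protein level, which these data do not measure.

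The 250 bases before 1 RefSeq start of transcription are shown for 6 members, on GRCh38.p14, 5′ to 3′ on the strand of the gene. Among the listed starts of a gene, the one nearest its annotated 5′ end was taken. That start can lie inside the annotated span of the gene, as for LDHA, PGK1, LDHB and EGLN3. AK4, LDHA, BNIP3 and PGK1 fell and LDHB and EGLN3 were not called, and LDHA and LDHB are the alternative subunits of one enzyme. Capitals mark every ACGTG or GCGTG on either strand, which reads CACGT or CACGC when the core lies on the other strand. The palindrome CACGTG, an E-box that other factors also bind, holds ACGTG on both strands and counts as a match on each.
AK4 (chr1:65147302-65147551, plus strand): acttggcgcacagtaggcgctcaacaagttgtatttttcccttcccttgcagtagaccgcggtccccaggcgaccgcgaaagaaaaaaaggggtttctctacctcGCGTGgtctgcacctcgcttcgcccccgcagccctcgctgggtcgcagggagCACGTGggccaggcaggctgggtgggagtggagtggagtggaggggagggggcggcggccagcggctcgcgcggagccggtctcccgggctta
LDHA (chr11:18394313-18394562, plus strand): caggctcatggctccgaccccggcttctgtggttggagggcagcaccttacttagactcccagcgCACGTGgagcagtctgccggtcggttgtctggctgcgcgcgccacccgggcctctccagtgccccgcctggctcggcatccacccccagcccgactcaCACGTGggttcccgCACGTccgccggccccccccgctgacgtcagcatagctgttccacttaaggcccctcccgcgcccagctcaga
BNIP3 (chr10:131981924-131982173, minus strand): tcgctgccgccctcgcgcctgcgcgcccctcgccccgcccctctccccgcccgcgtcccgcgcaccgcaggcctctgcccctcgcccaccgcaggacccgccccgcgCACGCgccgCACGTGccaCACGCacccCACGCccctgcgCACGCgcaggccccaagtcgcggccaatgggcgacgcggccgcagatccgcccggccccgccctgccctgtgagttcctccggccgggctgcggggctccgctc
PGK1 (chrX:78103998-78104247, plus strand): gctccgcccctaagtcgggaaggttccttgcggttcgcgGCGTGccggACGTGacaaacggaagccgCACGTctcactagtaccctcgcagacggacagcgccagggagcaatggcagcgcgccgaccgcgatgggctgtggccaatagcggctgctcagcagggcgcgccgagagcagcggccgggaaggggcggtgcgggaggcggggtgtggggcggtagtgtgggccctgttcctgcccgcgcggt
LDHB (chr12:21657843-21658092, minus strand): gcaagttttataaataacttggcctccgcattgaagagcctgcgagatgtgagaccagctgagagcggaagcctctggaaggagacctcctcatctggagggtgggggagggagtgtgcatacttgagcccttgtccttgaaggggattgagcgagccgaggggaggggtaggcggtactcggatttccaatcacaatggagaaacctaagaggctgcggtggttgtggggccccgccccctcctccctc
EGLN3 (chr14:33951075-33951324, minus strand): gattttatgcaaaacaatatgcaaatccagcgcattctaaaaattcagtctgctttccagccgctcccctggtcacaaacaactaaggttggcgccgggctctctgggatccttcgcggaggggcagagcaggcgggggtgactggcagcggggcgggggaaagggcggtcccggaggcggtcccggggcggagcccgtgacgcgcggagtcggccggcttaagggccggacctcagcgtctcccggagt

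These windows held 3 matches in AK4, 5 in LDHA, 6 in BNIP3 and 3 in PGK1. No match was found in the windows of LDHB and EGLN3. The windows shown were picked as examples and do not stand for all members. Over all members with a window, 16 of 22 that fell and 7 of 12 not called held a match. A match is a description of letters and not evidence of a bound site. The counts over all members follow the expression values.

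Values are the authors' normalised read counts, whole numbers with library totals from 37737058 to 40017763, and 1 CPM (a count scaled to library size) corresponds to 38.9 of them. Libraries are listed below in replicate order. The targeted gene EXT1 read 1776, 1499, 1464 and 1508 in the WT libraries against 890, 894, 915 and 980 in the EXT1-/- libraries, so its RNA was reduced but present in each of the latter. The share of counts from mitochondrially encoded genes was 9.18% to 10.7% in WT replicate 1 and EXT1-/- replicates 1 and 4, and 5.30% to 5.43% in the other 5 libraries. The first 3 are called the high-mitochondrial libraries. Changes within each set are given in the text for some members and in the plot of fold changes for all. In bulk RNA, fewer cells of a type and less RNA per cell cannot be told apart. Of 6 primitive streak and mesendoderm markers 5 fell (summed normalised counts 31710 to 35939 in WT and 11867 to 18617 in EXT1-/-), all 5 undifferentiated stem cell markers fell (104759 to 108194 against 48186 to 51175), and 4 of the 5 neural markers in the table rose (5286 to 9073 against 16252 to 28866). The streak marker FGF8 went from 435 ± 62.1 in WT to 702 ± 261 in EXT1-/- (SD, n = 4 each). By the limma test described below it was not called (adjusted p = 0.0536). With the library set as a second term of that fit it was called higher (limma adjusted p = 0.0399). The authors' deposited comparison also had it as higher (edgeR FDR = 0.00479). Every EXT1-/- library lay above every WT library for FGF8. The neural marker OTX2 fell and PAX6 was not in the table. SOX2 was counted as neural only, although undifferentiated stem cells also express it. It rose, from 4430 to 8347 in WT to 8920 to 13929 in EXT1-/-, and made up a large part of the neural sums. Of the 5 endothelial and blood markers only KDR was in the table, and it fell (9967 to 10796 against 1458 to 1793). Of 4 fibroblast markers COL1A1 and COL1A2 were in the table, and both fell (summed 5702 to 7024 against 3547 to 4350). The part of these markers in the results on glycolysis and hypoxia genes was not tested.

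Genotypes were compared with limma on log2(value + 1), with p-values adjusted by the Benjamini-Hochberg method over all 15811 genes and a threshold of 0.05. Of all genes in the table, 32.0% of genes were called, 16.8% as lower and 15.2% as higher in EXT1-/- cells. Of the members 24 of 37 were lower and 0 were higher. The median log2 fold change of the members was -0.48, against 0.01 over all genes, and 35 of 37 members had a negative value. All 24 called members lay without overlap, every EXT1-/- library below every WT library, which was so for 17.2% of all genes. Falls of at least 2-fold were called in 8 members, against 4.28% of all genes. Most members were lower in both library sets, and 34 were below 0 in both. Their median was -0.42 among the 5 low-mitochondrial libraries and -0.46 among the 3 high-mitochondrial ones, of which WT has 1. Over all genes these medians were 0.004 and 0.03. HIF1A was above 0 in both sets. The plot of fold changes by role shows the spread within each class.

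**Figure D1:**
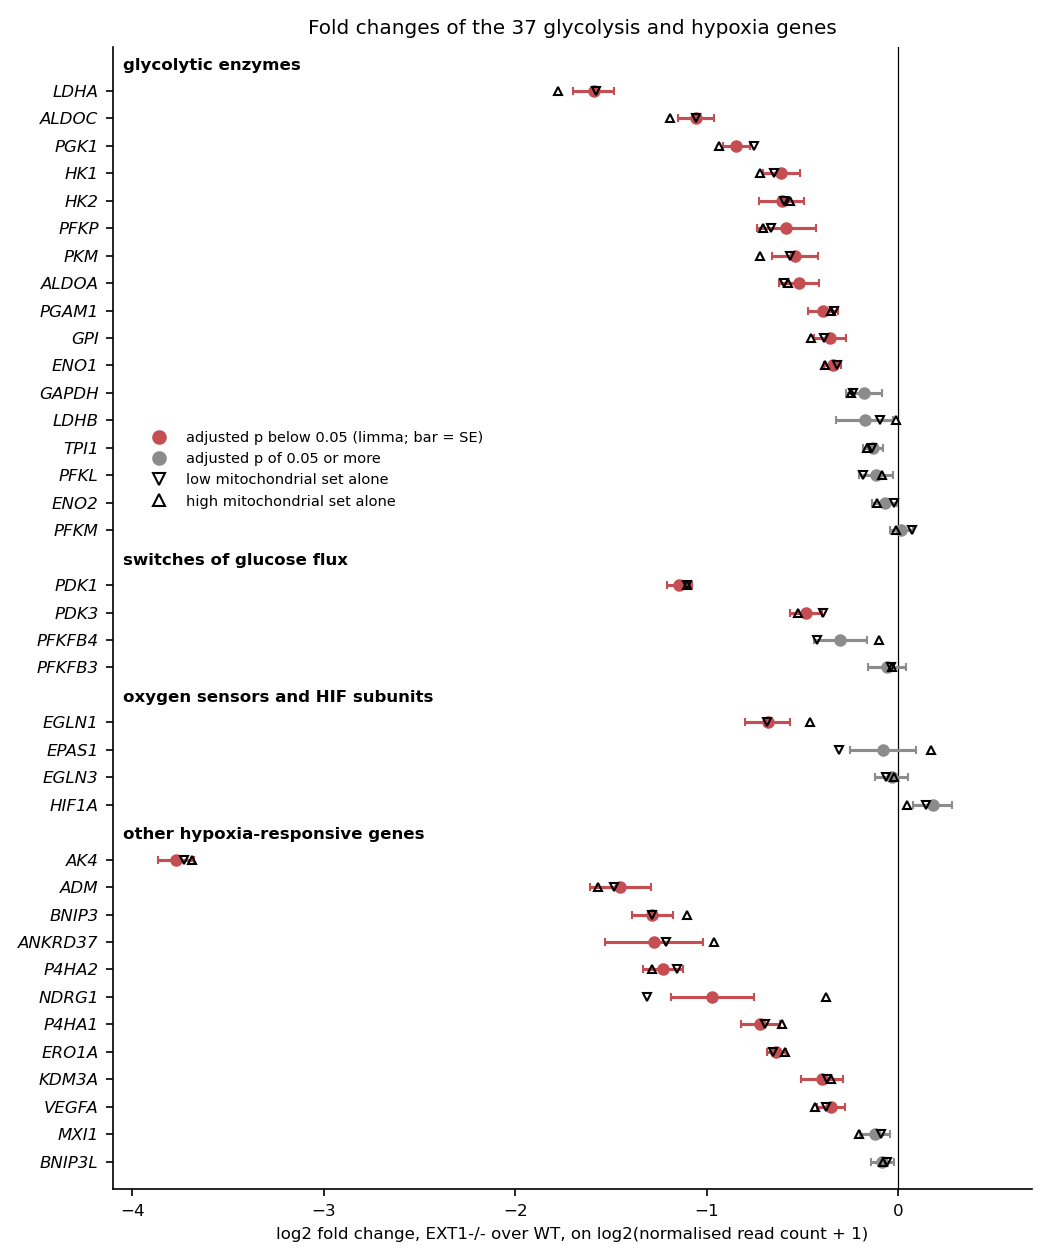
Log2 fold change (EXT1-/- over WT, on normalised read counts + 1) of each of the 37 members, grouped by role, with bars for the limma standard error; triangles give the change within the low-mitochondrial (down) and high-mitochondrial (up) libraries. Among the members not called, PFKM at 0.02 and EGLN3 at -0.03 lie nearest 0 and PFKFB4 at -0.30 lies farthest from it. Among those that fell, AK4 stands at -3.77.

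Glycolytic enzymes fell at most steps of the pathway: 11 of 17 were lower, with a median log2 fold change of -0.39, and the other 6 (GAPDH, LDHB, TPI1, PFKL, ENO2 and PFKM) were not called. Together the 17 enzymes made up 1.48% ± 0.056 (SD, n = 4) of all counts in WT and 1.14% ± 0.023 (SD, n = 4) in EXT1-/- cells. The WT libraries ranged from 1.40% to 1.54% and the EXT1-/- libraries from 1.11% to 1.16%, without overlap.

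LDHA, the subunit of lactate dehydrogenase that favours lactate production, was 53109, 43872, 42469 and 38829 in WT and 17116, 14281, 13638 and 14004 in EXT1-/- cells. Every EXT1-/- library lay far below the lowest WT library, and the highest value of each group was in replicate 1, a high-mitochondrial library. The mean went from 44570 ± 6077 to 14760 ± 1593 (SD, n = 4 each), 3.01-fold lower, with a log2 fold change of -1.59 ± 0.11 (SE; limma adjusted p = 1.15e-05). The change was -1.58 in the low-mitochondrial and -1.78 in the high-mitochondrial libraries. LDHA (ENSG00000134333) lies on the plus strand of chr11:18394388-18408425.

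ALDOC, a minor aldolase, was 2135, 1711, 1909 and 1679 in WT and 1012, 865, 834 and 861 in EXT1-/- cells, and the groups stood well apart. Its log2 fold change was -1.05 ± 0.10 (SE; limma adjusted p = 5.77e-05). PGK1, phosphoglycerate kinase, which makes the first ATP of the pathway, was 32243, 33926, 32663 and 30416 in WT and 17819, 19231, 19097 and 15920 in EXT1-/- cells. All 4 EXT1-/- values were close to each other and far below the lowest WT value, giving -0.85 ± 0.07 (SE; limma adjusted p = 3.78e-05). PKM, pyruvate kinase, the last step before pyruvate, was 69890, 53250, 53511 and 50029 in WT and 45691, 35493, 35146 and 39308 in EXT1-/- cells. Its groups did not overlap, but the high-mitochondrial libraries had the highest values of their group, and the change was -0.54 ± 0.12 (SE; limma adjusted p = 0.00957).

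The hexokinases, which trap glucose in the cell, both fell: HK1 from 4316 ± 493 to 2823 ± 274 and HK2 from 3794 ± 588 to 2480 ± 254 (SD, n = 4 each). Their log2 fold changes were -0.61 ± 0.10 and -0.61 ± 0.12 (SE). ALDOA, the main aldolase, fell by 0.52 and PFKP, the platelet phosphofructokinase, by 0.58 on the log2 scale. PGAM1, phosphoglycerate mutase, fell by 0.39, GPI, which interconverts glucose and fructose phosphates, by 0.36, and ENO1 by 0.34. The adjusted p-values of these 5 enzymes ran from 5.77e-04 for ENO1 to 0.0196 for PFKP (limma). PFKP was not called without WT replicate 3 (adjusted p = 0.0583, limma) or without EXT1-/- replicate 2 (0.0511).

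GAPDH, which oxidises glyceraldehyde phosphate, was 198562, 167792, 165285 and 164588 in WT and 166697, 138326, 143087 and 167974 in EXT1-/- cells. The groups overlapped through the high-mitochondrial libraries, 1 of WT and 2 of EXT1-/-, which were the highest of their group. Its log2 fold change of -0.18 ± 0.09 (SE) was not called (limma adjusted p = 0.177). Within the sets it was -0.24 and -0.25, and with the library set as a second term of the fit GAPDH was called lower at -0.24 (limma adjusted p = 8.12e-05). TPI1, triose phosphate isomerase, moved from not called at -0.13 (adjusted p = 0.0838) to called at -0.15 (0.00557) in the same way. With that term 26 members were lower and 1, HIF1A, was higher, against 25.6% and 26.2% of all genes.

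LDHB, the lactate dehydrogenase subunit that favours the return of lactate to pyruvate, was 39338, 54700, 54662 and 56860 in WT and 39602, 51797, 52125 and 38608 in EXT1-/- cells. Its low values were the 3 high-mitochondrial libraries of both genotypes, and its log2 fold change was -0.09 in the low-mitochondrial and -0.01 in the high-mitochondrial libraries. Over all libraries it was -0.17 ± 0.15 (SE; limma adjusted p = 0.406). PFKL and PFKM, the liver and muscle phosphofructokinases, had log2 fold changes of -0.11 and 0.02, and ENO2, the neuronal enolase, had -0.07. All 3 overlapped between genotypes and were not called.

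**Figure D2:**
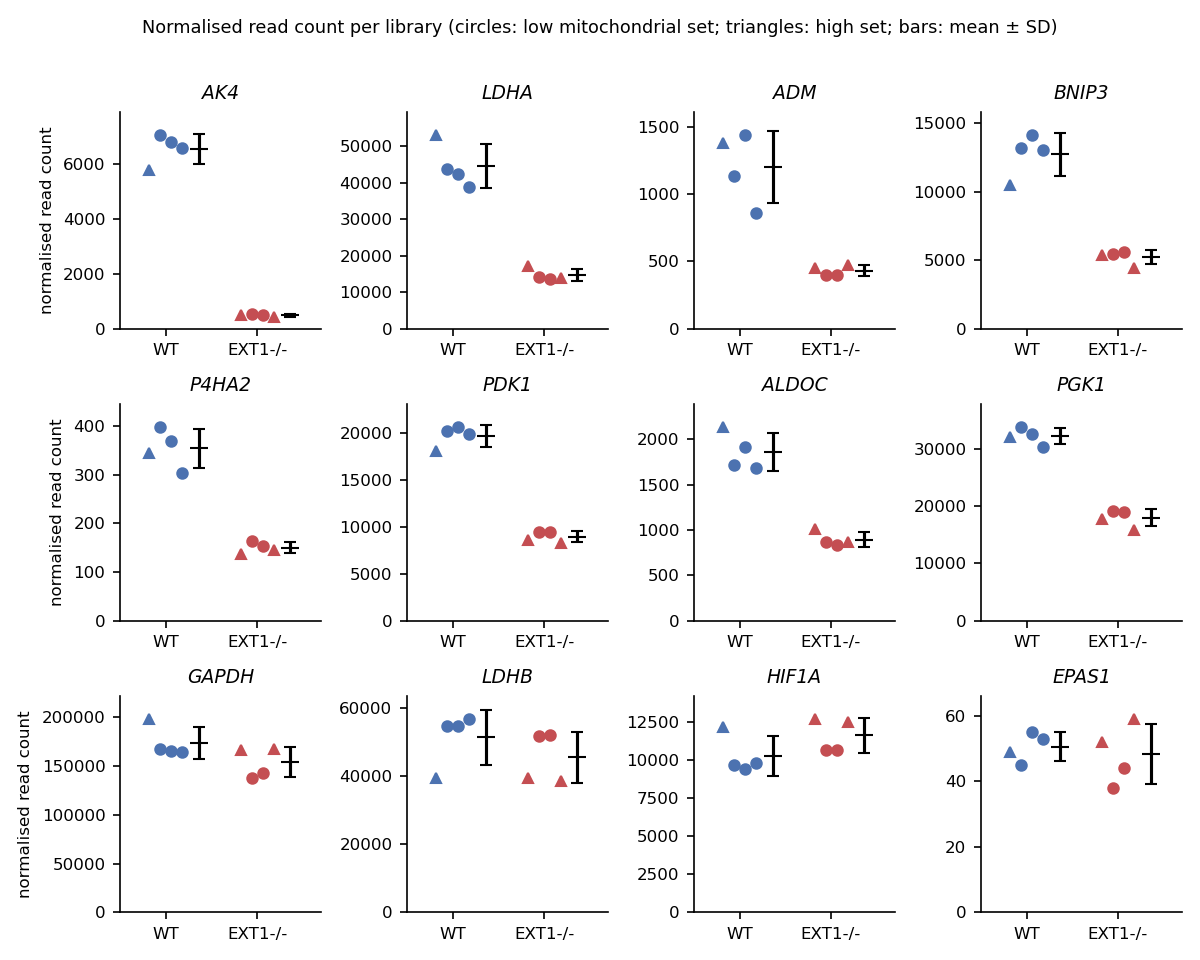
Normalised read counts of 12 members in each of the 8 libraries, with a bar at the group mean; the vertical scale differs between panels and is linear. AK4 shows no value between 541 in EXT1-/- and 5802 in WT, while GAPDH, LDHB and HIF1A split by library set within each genotype.

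Because several steps have isoenzymes, the ratio of related members within a library was compared for 12 pairs by a two-sided exact permutation test, with p-values adjusted over the 12. Apart from the pseudocount, such a ratio does not depend on library scaling. In 8 pairs the genotypes did not overlap, and each had an exact p of 0.0286, the smallest that 4 against 4 libraries can give, and an adjusted p of 0.0429. The ratio of LDHB to LDHA rose by 1.42 on the log2 scale, or 2.67-fold, the largest difference of the 12. Per library its log2 value was -0.43, 0.32, 0.36 and 0.55 in WT and 1.21, 1.86, 1.93 and 1.46 in EXT1-/- cells. The lowest value in each genotype was in replicate 1, and the rise was 1.49 in the low-mitochondrial and 1.77 in the high-mitochondrial libraries. Per kilobase of exon, LDHA was 29.8% ± 6.53 (SD, n = 4) of lactate dehydrogenase RNA in WT and 13.7% ± 2.82 in EXT1-/- cells. These shares depend on the annotation, since all annotated exons span 6210 bases in LDHA and 2983 in LDHB.

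The other 7 pairs that passed also held a partner that fell more than its relative. The ratio of BNIP3L to BNIP3, related mitophagy receptors, rose by 1.20 on the log2 scale, that of PDK3 to PDK1 by 0.66, that of EGLN3 to EGLN1 by 0.65 and that of ENO2 to ENO1 by 0.27. The ratio of ALDOC to ALDOA fell by 0.54, that of P4HA2 to P4HA1 by 0.51 and that of PFKP to PFKL by 0.47. The other 4 pairs did not pass the test. HK2 to HK1 differed by 0.00 (adjusted exact p = 1), PFKM to PFKL by 0.13 (0.281), PFKFB4 to PFKFB3 by -0.24 (0.0762) and EPAS1 to HIF1A by -0.26 (0.240).

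**Figure D3:**
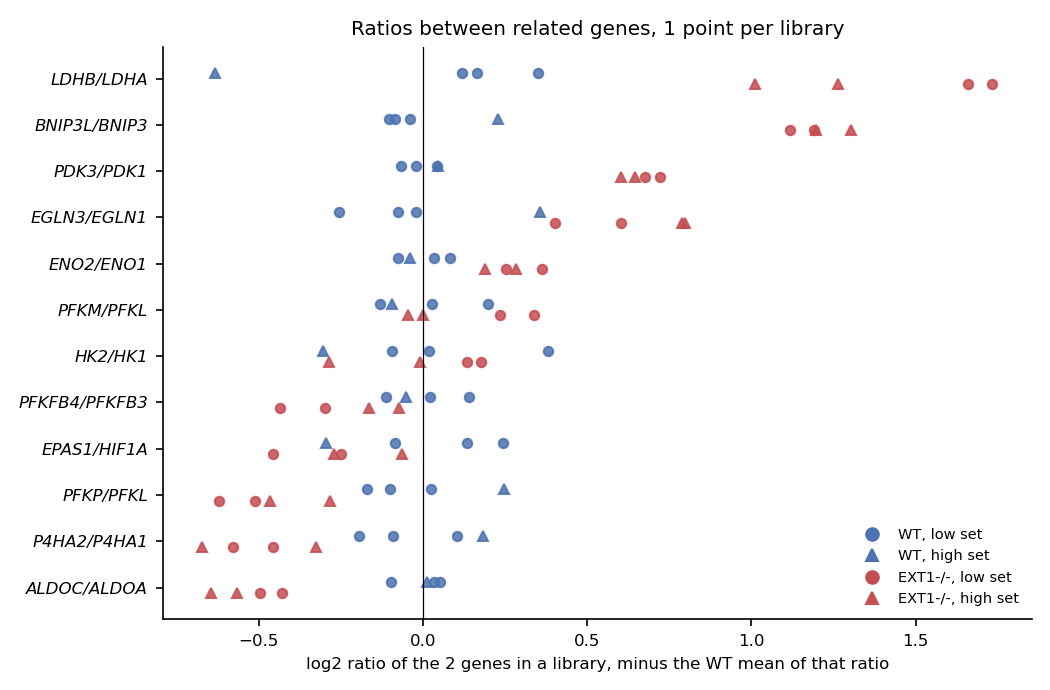
Log2 ratio of normalised read counts for the 12 pairs of related members, minus the WT mean of that ratio, 1 point per library. For LDHB/LDHA and BNIP3L/BNIP3 the genotype means differ by more than 1 on the log2 scale, while HK2/HK1 overlaps fully.

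Levels between genes are compared only as CPM per kilobase of all annotated exons, a scale that understates genes with long rare transcripts. In WT cells GAPDH was the most abundant member at 1498 ± 114 (SD, n = 4), followed by LDHB at 443 ± 76.0 and ENO1 at 438 ± 12.3, which did not differ beyond their spread. LDHA was at 184 ± 22.1, ALDOA at 196 ± 18.9 and PKM at 170 ± 23.6, again within their spread. In EXT1-/- cells LDHA, at 61.1 ± 5.79, stood below ALDOA at 137 ± 13.2. Summed over isoenzymes on this scale, hexokinase was 34.5% lower in EXT1-/- cells, aldolase 31.8%, lactate dehydrogenase 27.4%, enolase 19.9% and phosphofructokinase 12.1%. The phosphofructokinase sums overlapped in range between genotypes, at 22.8 to 28.0 in WT and 22.6 to 22.9 in EXT1-/- cells.

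Of the switches that direct glucose carbon, the pyruvate dehydrogenase kinases PDK1 and PDK3 fell and the regulators PFKFB3 and PFKFB4 were not called. PDK1, which shuts pyruvate out of the mitochondrial citrate cycle, was 18059, 20165, 20648 and 19844 in WT and 8636, 9432, 9390 and 8220 in EXT1-/- cells. The high-mitochondrial libraries were the lowest of each genotype, and the genotypes stayed far apart. The log2 fold change was -1.14 ± 0.07 (SE; limma adjusted p = 5.28e-06), and -1.10 in each set. PDK3 fell from 1059 ± 63.9 to 760.5 ± 75.6 (SD, n = 4 each), or by 0.48 on the log2 scale. PFKFB3 and PFKFB4, which make and remove the activator of phosphofructokinase, had log2 fold changes of -0.06 and -0.30, and neither was called. For PFKFB4 the change was -0.42 among the low-mitochondrial libraries alone (limma adjusted p = 0.0388) and -0.10 among the high-mitochondrial ones, where the genotypes overlapped.

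Among the oxygen sensors and HIF subunits EGLN1 fell and EGLN3, HIF1A and EPAS1 were not called. EGLN1, the main oxygen sensor and itself raised by HIF, was 1403, 1923, 2015 and 1768 in WT and 1048, 1174, 1191 and 993 in EXT1-/- cells. Its lowest WT value was in the high-mitochondrial library, still above every EXT1-/- value, and the log2 fold change was -0.68 ± 0.12 (SE; limma adjusted p = 0.00248). Within the sets it was -0.68 in the low-mitochondrial and -0.46 in the high-mitochondrial libraries. EGLN3, an inducible relative, ranged from 314 to 387 in WT and from 307 to 353 in EXT1-/- cells.

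HIF1A was 12233, 9721, 9426 and 9805 in WT and 12740, 10674, 10679 and 12502 in EXT1-/- cells. The 3 high-mitochondrial libraries were the highest, and within the low-mitochondrial set both EXT1-/- values lay above all 3 WT values. Over all libraries its log2 fold change was 0.18 ± 0.10 (SE; limma adjusted p = 0.203). HIF1A was called higher in 3 other fits, at 0.15 among the low-mitochondrial libraries alone (adjusted p = 0.00892), at 0.11 with the library set as a term (0.0147) and at 0.27 without WT replicate 1 (0.0286). The low-mitochondrial libraries alone gave 27 members lower and 1 higher, beside 24.3% and 21.1% of all genes. EPAS1 was scarce, at 49, 45, 55 and 53 in WT and 52, 38, 44 and 59 in EXT1-/- cells, and no difference was detectable over all libraries at this depth (limma adjusted p = 0.760). Its direction differed between the sets, at -0.31 in the low-mitochondrial libraries (limma adjusted p = 0.256) and 0.17 in the high-mitochondrial ones, of which WT has 1.

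Of the 12 other hypoxia-responsive genes 10 were lower, with a median log2 fold change of -0.84. The members not called were MXI1, an antagonist of MYC, at -0.12 and BNIP3L at -0.08. AK4 was 5802, 7073, 6817 and 6608 in WT and 486, 541, 487 and 414 in EXT1-/- cells. The libraries of each genotype were close together and the groups were far apart. Its mean fell from 6575 ± 549 to 482.0 ± 52.1 (SD, n = 4 each), a log2 fold change of -3.77 ± 0.09 (SE; limma adjusted p = 5.93e-08), which ranked 30 among the falls of all genes. AK4 (ENSG00000162433) lies on the plus strand of chr1:65147549-65232145. Of its neighbours, looked at after its value was seen, JAK1 fell by 0.41 and DNAJC6 by 0.35 on the log2 scale, RAVER2 by 0.20 and LEPR by 0.64, ROR1 and CACHD1 rose by 0.52 and 0.48, and LEPROT was not called at -0.02.

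BNIP3, which marks mitochondria for removal, was 10465, 13214, 14126 and 13019 in WT and 5338, 5448, 5587 and 4443 in EXT1-/- cells. Lower values in the high-mitochondrial libraries did not bring the groups together, and its log2 fold change was -1.28 ± 0.11 (SE; limma adjusted p = 3.61e-05). BNIP3L was 3204, 3362, 3484 and 3171 in WT and 3204, 3251, 3168 and 2869 in EXT1-/- cells, with overlapping groups. ADM, the secreted vasodilator adrenomedullin, was 1381, 1133, 1440 and 859 in WT and 454, 401, 398 and 476 in EXT1-/- cells. The WT libraries spread widely while the EXT1-/- libraries were tight, and the change was -1.45 ± 0.16 (SE; limma adjusted p = 1.75e-04). VEGFA, the main growth factor of blood vessels, changed less in size: it was 3245, 2799, 2889 and 2728 in WT and 2397, 2137, 2192 and 2411 in EXT1-/- cells. Its groups did not overlap, at -0.35 ± 0.07 (SE; limma adjusted p = 0.00593).

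P4HA2 and P4HA1 encode catalytic subunits of collagen prolyl hydroxylase, and both fell. P4HA2 was 345, 398, 370 and 303 in WT and 137, 164, 154 and 145 in EXT1-/- cells, a change of -1.23 ± 0.10 (SE; limma adjusted p = 3.93e-05). P4HA1 fell by 0.72, ERO1A, which drives disulfide formation, by 0.64, and the histone demethylase KDM3A by 0.40 on the log2 scale. KDM3A was not called without WT replicate 2 (limma adjusted p = 0.0627) or WT replicate 3 (0.0653). ANKRD37, a small HIF target, was 100, 146, 225 and 148 in WT and 59, 75, 70 and 44 in EXT1-/- cells, with a wide WT spread and a change of -1.28 ± 0.26 (SE; limma adjusted p = 0.00534). NDRG1, a stress-induced protein, was 95, 134, 172 and 106 in WT and 77, 60, 48 and 69 in EXT1-/- cells. The groups came closest at 95 and 77, both in replicate 1. Its change was -0.97 ± 0.22 (SE; limma adjusted p = 0.00904), but -1.31 in the low-mitochondrial and -0.38 in the high-mitochondrial libraries.

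Genes of the same pathways outside the members were counted from lists. Of 12 genes of glucose and lactate transport 6 fell and 2 rose. SLC2A3, the high-affinity glucose transporter, fell from 29022 ± 1357 to 12394 ± 211 (SD, n = 4 each; -1.23, limma adjusted p = 9.33e-07), and SLC2A1, the basal transporter, from 12165 ± 1497 to 6586 ± 717 (-0.88, 2.86e-04). SLC2A14 fell by 1.10 on the log2 scale, but it is a near-identical copy of SLC2A3 and the split of reads between them is uncertain. SLC16A3, which exports lactate, fell from 1009 ± 317 to 305.8 ± 54.0 (-1.69, 4.06e-04).

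The table held 33 other hypoxia-responsive genes, of which 17 fell and 2 rose, with a median log2 fold change of -0.43. The repressor BHLHE41 fell by 3.93 and the mitochondrial protein FAM162A by 1.02 on the log2 scale, while the nuclear receptor RORA rose by 1.39. Of 5 genes of glucose sensing through MondoA, TXNIP, an inhibitor of glucose uptake, and ARRDC4 fell, by 1.11 and 1.13. In the pentose phosphate pathway 2 of 8 fell, among them the transketolase TKT by 0.77. Of 14 genes of pyruvate entry into mitochondria 1 fell and 1 rose, and these were the pair of phosphatases that oppose the PDK kinases. PDP1 rose from 945.5 ± 79.3 to 1729 ± 218 (SD, n = 4 each; 0.87, limma adjusted p = 2.84e-04) and PDP2 fell from 1489.5 ± 85.9 to 1186.5 ± 62.9 (-0.33, 0.00488). Of 21 other glucose-handling enzymes 4 fell and 2 rose, with FBP1, of gluconeogenesis, at -1.64. Of 15 HIF regulators and partners 1 fell and 2 rose. CITED2, which competes with HIF for its coactivators, was 1883 ± 545 in WT and 5739 ± 1460 in EXT1-/- cells (SD, n = 4 each; 1.61, limma adjusted p = 8.14e-04), and SIAH2, a ubiquitin ligase for EGLN proteins, fell by 0.74. These counts stand beside the 16.8% and 15.2% of all genes called lower and higher.

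**Figure D4:**
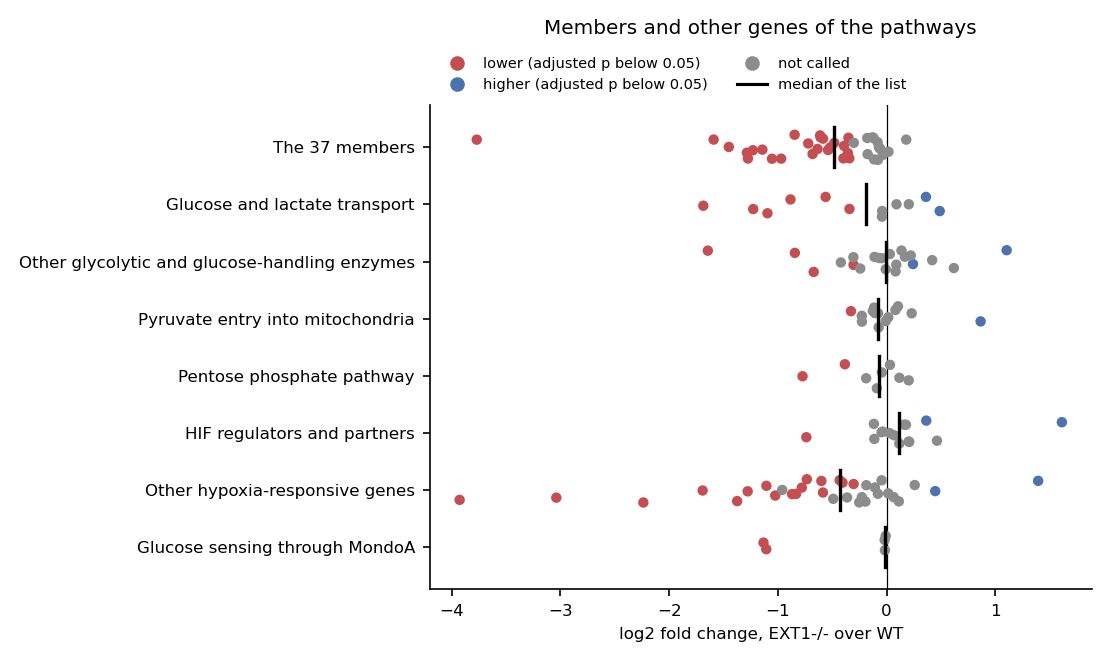
Log2 fold change (EXT1-/- over WT) of the 37 members and of every gene in the table from each list, 1 point per gene, with the list median. The other hypoxia-responsive genes have a median of -0.43 and the HIF regulators of 0.12.

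Promoter windows of 250 bases were available for 34 of the 37 members, matched by symbol in the RefSeq table of GRCh38.p14. VEGFA, NDRG1 and BNIP3L were not matched. A core on either strand was present in 16 of 22 members that fell (72.7%), in 7 of 12 not called (58.3%), in 57.1% of 10861 table genes with a window and in 43.2% of all 35116 windows. The core ACGTG alone was present in 13 of 22 members that fell (59.1%) and in 2 of 12 not called (16.7%), GAPDH and ENO2. It was in 23.2% of table genes, in 23.6% of all genes called lower and in 18.5% of all windows. At least 2 matches were found in 10 of the 22 (45.5%), in 1 of the 12 (8.33%) and in 28.5% of table genes. The E-box was in 5 of the 22, AK4, LDHA, BNIP3, ANKRD37 and ALDOC, and in GAPDH among the others, against 8.78% of table genes. Median GC content was 69.0% in members that fell, 71.2% in those not called and 65.2% in table genes. Many members were chosen as known hypoxia-responsive genes, and windows at other starts of the same gene were not searched. The start used was the listed one nearest the annotated 5′ end, and whether it is active in these cells was not tested. HK1 and PFKM each had 7 listed starts and PDK1 had 2.

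**Figure D5:**
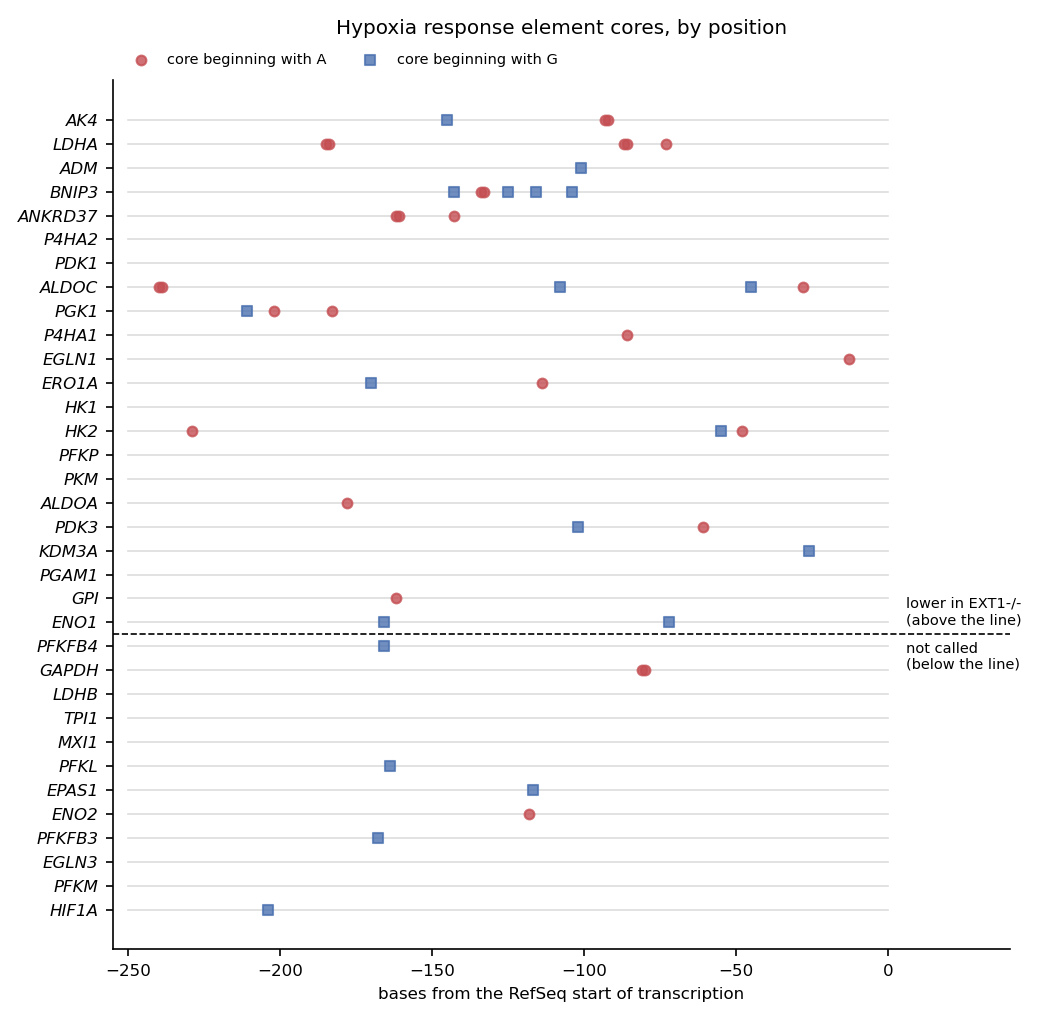
Position of each match to a hypoxia response element core in the 250 bases before the RefSeq start, for 34 members ordered by fold change, with the members that fell above the dashed line. BNIP3 has the most matches, 6, and P4HA2 and PDK1, which also fell, have none in this window.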

How the data were processed

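Per the submitters' processing notes, STAR, RSEM and edgeR were used with GRCh38.p10, without tool versions; the use of strand in counting is not given in the sources used here. The authors deposited one table with 8 library columns of whole numbers. The authors deposited these as a normalised signal, rounded, rather than raw counts: effective library sizes computed here agreed within 38890791 to 38903983. The table also holds the authors' deposited log2 fold change, log2 CPM, likelihood ratio score, p-value and FDR; its FDR marks the same 24 members as lower. Genes below about 1 CPM in 2 libraries were left out by the authors, judging from the values.

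Here, log2(value + 1) was fitted with limma 3.58.1 (R 4.3.3) with an intensity trend; no count model was applied, since normalised values do not suit one. A group mean of at least 1 was required, which all 37 members passed, and 32 had at least 10 CPM in every library (lowest value 38). The script was tested on simulated data. Summaries and figures were made with scipy 1.17.1, numpy 2.4.6, matplotlib 3.10.9 and pandas 2.3.3 under Python 3.11.15. Coordinates and exon lengths are from GENCODE 29 on GRCh38, which matched 15777 genes. Groups come from the sample titles, and 0 columns of other samples were present.

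The members and lists were chosen with earlier results of these data known. Values per library were given for the 8 members with the largest falls and for a set of central members; NDRG1, EGLN1 and BNIP3L were added after their values were seen. In the lists, up to 3 genes with the smallest adjusted p were eligible to be named, and SLC2A1, SLC2A3, SLC16A3 and TXNIP always were. Of the members 15 have named pseudogenes (149 in all, 10 of them in the table) and 11 overlap exons of another gene in the table, so reads may be split between them.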

Additional observations from a re-analysis of the deposited data

Results flagged for a closer look

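In 5 of 74 groups of 4 libraries, 1 library stood apart from the other 3 by more than the 95% limit of Dixon's test, which chance alone gives in about 1 group of 20. WT replicate 1 was high for GAPDH (198562, the others at most 167792), high for HIF1A (12233, the others at most 9805) and low for LDHB (39338, the others at least 54662). EXT1-/- replicate 1 was high for TPI1 (32138, the others at most 29876). These 4 values came from libraries with a high mitochondrial share, 10.7% in WT replicate 1 and 9.18% in EXT1-/- replicate 1, whose part in them was not tested. WT replicate 3, with a low share, was high for PFKFB3 (1654, the others at most 1381).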

How the results depend on the processing

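No member changed direction among those called, and 20 of the 24 members called lower were tested and called under every alternative run. KDM3A and PFKP lost the call without single libraries, and ANKRD37 and NDRG1 were not tested where at least 5 CPM was required but were called in all other alternatives. Leaving out each library in turn gave 22 to 24 members lower, 0 to 1 higher (HIF1A, without WT replicate 1), a member median of -0.50 to -0.42 and 3721 to 6041 genes called, against 5063 with all libraries. The library set as a term gave 8195 genes called and 1 member higher; the low-mitochondrial libraries alone gave 7177 genes and 1 member higher, and there PDK3/PDK1 was 0.71 and PFKFB4/PFKFB3 -0.38. The cause was not tested. Scaling, pseudocount, filter and voom alternatives changed no call of a member tested; with at least 5 CPM required, 34 members were tested and 22 were lower. Scaling moved the median of all genes by less than 0.1. The labels state no pairing by replicate number. The deviations of same-numbered libraries correlated at 0.71, 0.29, 0.24 and -0.51. Between genotypes, every correlation within a mitochondrial set was positive and every one across sets was negative. WT replicate 1 and EXT1-/- replicate 4, both high-mitochondrial, correlated at 0.59. The library set was not removed, so these values cannot decide whether replicate numbers pair the samples. With the replicate block 4934 genes and 24 members were called, and the median stayed at -0.48. EPAS1 had only 38 to 59 counts, and the part of depth in its not being called was not tested.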
